A study of Mus musculus with 20 samples.

Results

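This account concerns the difference between a spinal and a cranial type of cultured motor neuron in how their RNA changed over 36 h without any drug. It compares 8 of the 20 libraries of the series, chosen by their labels and not by measured values: the untreated libraries at 0 h and at 36 h, with 2 in each of 4 groups. The model was fitted to all 20 libraries, so the spread and the replicate block were estimated also from the 4 untreated libraries at 12 h and the 8 with cyclopiazonic acid. The quantity followed is the change of a gene from 0 h to 36 h in NIP minus the same change in NIL, on the log2 scale, so that a value above 0 means that the level rose more, or fell less, in NIP. It is called the line difference below.

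The cells were neurons made from mouse embryonic stem cells, labelled spinal for NIL and cranial for NIP, in a series titled as a cell model of amyotrophic lateral sclerosis. In this field NIL stands for forced expression of Neurog2, Isl1 and Lhx3, and NIP for Neurog2, Isl1 and Phox2a. Both lines were kept in the same kind of motor neuron medium with serum, B27 and growth factors, and the clock started with neurons at day 2. The groups were NIL at 0 h, NIL at 36 h without cyclopiazonic acid, NIP at 0 h, and NIP at 36 h without cyclopiazonic acid. Later times are 12 h and 36 h in the sample titles but 6 h and 12 h in the texts on treatment and design. The titles were followed, so the length of the interval is uncertain while its order is not. The labels used here do not say whether replicates were separate differentiations, which promoter drove the factors, or how many clones stood behind a line. The p-values therefore measure only the spread between these libraries.

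Postmitotic motor neurons programmed from stem cells go on maturing in culture: they extend axons, build synapses and change the channels and adhesion molecules on their surface. Lhx3 with Isl1 directs the spinal programme, and Phox2a with Isl1 the cranial one, so that a shared neuronal course runs beside line-specific genes. Cells in general can tune their supply of amino acids through ATF4. This transcription factor raises transporters, biosynthetic enzymes and tRNA synthetases when amino acids run short or when an eIF2alpha kinase is active. Its activity was not measured here.

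Gene reads in the 8 libraries ran from 10799392 to 29489701. Rn45s, the ribosomal RNA precursor gene, took 5.71% to 38.6% of them, with the highest share in replicate 1 of NIP at 36 h. Its own line difference was 1.32 ± 1.21 (adjusted p = 0.695), and -0.87 without that library. The libraries fitted their labels at the programming factors. Phox2a was at 0.181 to 3.31 CPM (read counts scaled to the size of the library) in the 4 NIL libraries and at 159.6 to 322 in the 4 NIP libraries. Lhx3 was at 131 to 151 CPM in NIL and at or below 0.326 in NIP, where 3 libraries held no Lhx3 read. Genes listed for other cell types were read at differing levels. The summed level of 20 endoderm and endothelium genes was 4169 and 14880 CPM in replicates 1 and 2 of NIL at 0 h. It was 7476 and 25010 in NIL at 36 h, 1527 and 4572 in NIP at 0 h, and 1014 and 5046 in NIP at 36 h. Whether such cells were present was not tested. Of 12 microglia and blood genes, Tyrobp, Hbb-bs, Hba-a1 and Hbb-bt had no read in the 8 libraries. The others had few reads, and the 12 summed to 0.119 to 0.932 CPM per library. In bulk RNA, fewer cells of a type and less RNA per cell cannot be told apart.

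The line difference passed the test for 88 of 14792 genes (0.595%; adjusted p below 0.05, edgeR quasi-likelihood test with the replicate number as a block). It was above 0 for 47 genes (0.318%) and below 0 for 41 (0.277%), and the log2 sizes ran from 0.94 to 5.24. Most of the contrast came from the NIP side. The change over 36 h was larger in NIP than in NIL for 76 of the 88, against 9278 of all 14792, and over all genes 1345 (9.09%) changed in NIP and 139 (0.94%) in NIL. In NIP 694 rose (4.69%) and 651 fell (4.4%), and in NIL 110 rose (0.744%) and 29 fell (0.196%). Of the 88, 77 also passed the test of the change in NIP but not in NIL, 6 in NIL but not in NIP, 2 in both and 3 in neither. The 2 that passed in both, Creb5 and Glcci1, fell in NIL and rose in NIP.

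The number of called genes depended on the block and on single libraries. Without the block 0 genes passed in edgeR (904 at an unadjusted p below 0.05), and DESeq2 with the block called 299. Leaving out replicate 1 or 2 left 2 or 28 genes for NIL at 0 h, 8 or 4 for NIL at 36 h, 1 or 160 for NIP at 0 h, and 11 or 16 for NIP at 36 h. Creb5 passed in all 8 of these fits, Ccnd1, Glcci1 and Plk3 in 6 each, and 20 of the 88 in none (among them Shmt2, Slc1a4, Yars, Tnr, Kcnj2, Cabp1, Hpca, Gabbr2, Slc6a17 and Crebrf), while the sign of all 88 held in all 17 alternatives. The alternatives reuse the libraries in which the 88 were chosen for a large line difference, which favours a kept sign. The kept signs are therefore a description. With the 8 libraries alone 141 genes passed, 69 of them among the 88. Of the genes described here, Chrm3, Crebrf, Gabbr2, Lrrtm2, Slc6a17, Thbs1 and Yars did not pass in that fit. With Rn45s removed from the library sizes 86 genes passed, 82 of them among the 88.

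**Figure D1:**
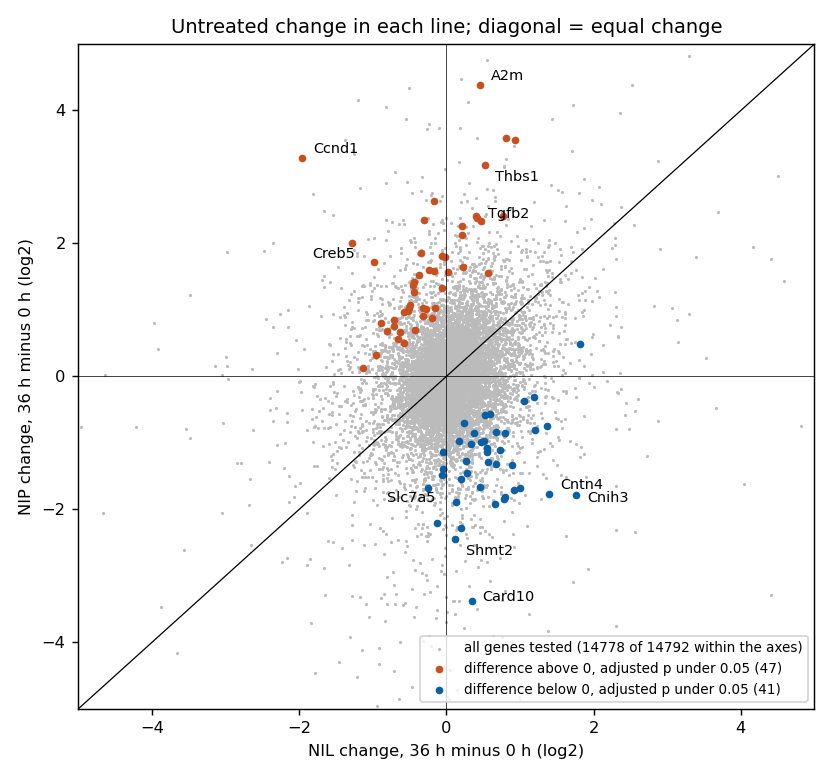
Each point is a gene, with its log2 change from 0 h to 36 h without drug in NIL (horizontal) and in NIP (vertical), for 14778 of 14792 genes within the axes. The diagonal marks an equal change. The 47 genes with a line difference above 0 (orange) lie above the diagonal and the 41 below 0 (blue) lie under it, and most of both are displaced up or down more than sideways.

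Ccnd1 had the largest line difference that passed, and Creb5 the smallest p. Ccnd1 encodes cyclin D1, which with CDK4 or CDK6 drives cells through G1 and is also found in postmitotic neurons. In NIL the level of Ccnd1 was 23.9 and 25.2 CPM at 0 h and 3.47 and 10.6 at 36 h, and in NIP 4.72 and 7.94 at 0 h and 61.1 and 57.6 at 36 h. It lay between these ends at 12 h, at 9.99 and 15.9 CPM in NIL and 18.8 and 13.0 in NIP. Its line difference was 5.24 ± 0.68 (standard error; adjusted p = 0.0147). Both NIP libraries at 36 h stood above all other untreated ones, and both NIL libraries were lower at 36 h than at 0 h. The change in NIL by itself was -1.96 ± 0.47 (adjusted p = 0.0824), and that in NIP 3.28 ± 0.49 (adjusted p = 0.00219). Without 1 library the adjusted p for the line difference of Ccnd1 ran from 0.0183 to 0.101. Of 26 proliferation genes, 25 had a line difference below 0 (52.7% of all genes did) and 0 passed in either direction (0.595% of all genes passed). Fgf15, a secreted fibroblast growth factor, lies close to Ccnd1 at chr7:144896531-144900953 (Ccnd1 at chr7:144929931-144939925, GRCm38, GENCODE vM21). It stood at 9.41 and 6.05 CPM in NIP at 36 h against 0.973 to 1.95 in the other 6 libraries, with a line difference of 2.66 ± 0.50 (adjusted p = 0.0294).

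Creb5 encodes a basic leucine zipper protein of the family that binds cAMP response elements. The Creb5 level went from 13.1 and 13.6 CPM in NIL at 0 h to 6.55 and 6.91 at 36 h, and from 4.94 and 9.57 in NIP to 22.8 and 23.6. The libraries of the 4 groups did not overlap between 0 h and 36 h in either line. The level fell in NIL by 0.98 ± 0.23 (adjusted p = 0.0499), rose in NIP by 1.72 ± 0.23 (adjusted p = 0.000508), and the line difference was 2.70 ± 0.32 (adjusted p = 0.00323, the smallest of all genes). Within replicate set 1 it was 3.17 and within set 2 2.25. At 12 h both lines were near each other, at 10.1 and 8.48 CPM in NIL and 9.82 and 12.2 in NIP. Glcci1, named for its transcript's induction by glucocorticoid, took the same course from a higher start in NIL. Glcci1 was at 236 and 216 CPM in NIL at 0 h and at 141 and 105 at 36 h, and at 31.0 and 26.6 in NIP at 0 h and at 62.9 and 39.6 at 36 h. The lines did not overlap at either time, and the line difference was 1.70 ± 0.24 (adjusted p = 0.0124).

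Several genes with a line difference above 0 make secreted or matrix proteins, and nearly all of their movement was in NIP. Thbs1 encodes thrombospondin 1, a matrix protein that promotes synapse formation. In NIL the level of Thbs1 was 9.31 and 20.6 CPM at 0 h and 13.4 and 29.3 at 36 h, and in NIP 9.06 and 13.0 at 0 h and 115 and 76.3 at 36 h. The change was 0.52 ± 0.37 in NIL (adjusted p = 0.644) and 3.18 ± 0.39 in NIP (adjusted p = 0.000698), and the line difference 2.66 ± 0.53 (adjusted p = 0.0474). That call did not hold with the 8 libraries alone (adjusted p = 0.181) and held in 1 of the 8 fits that left out 1 library (adjusted p from 0.0141 to 0.218). The sign was the same in those fits. Adamts2, the procollagen N-proteinase, rose from 1.9 and 5.05 to 36.8 and 40.9 CPM in NIP and stood at 6.79 and 5.5 and then 10.3 and 12.5 in NIL, a line difference of 2.78 ± 0.51 (adjusted p = 0.0294). A2m, an alpha-2-macroglobulin protease inhibitor, went from 1.09 and 0.632 to 12.5 and 20.5 CPM in NIP and from 1.34 and 2.29 to 2.79 and 2.04 in NIL, and only the NIP libraries at 36 h were above 5 CPM. Its line difference was 3.92 ± 0.84 (adjusted p = 0.0492). Tnr encodes tenascin-R, a neural matrix glycoprotein. It rose in NIP from 1.63 and 1.44 to 15.6 and 20.0 CPM, which reached the range of NIL at 36 h (18.1 and 12.6), for a line difference of 2.62 ± 0.55 (adjusted p = 0.0444). Tgfb2 encodes a TGF-beta ligand that supports motor neurons. The Tgfb2 level went from 72.6 and 72.1 CPM in NIL at 0 h to 99.6 and 94.1 at 36 h, and from 4.56 and 3.79 in NIP to 27.4 and 17.2. It rose in NIP by 2.39 ± 0.28 (adjusted p = 0.000248), the line difference was 1.97 ± 0.37 (adjusted p = 0.0294), and NIP stayed below NIL at both times.

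Matrix genes are also made by mesenchymal cells, so the marker sums are given here. The 18 mesenchyme genes in the files summed to 167 and 532 CPM in NIL at 0 h, 185 and 561 at 36 h, 324 and 251 in NIP at 0 h, and 239 and 252 at 36 h, so that in NIP the sum was lower at 36 h in replicate 1 and nearly equal in replicate 2. Thbs1 is in these sums, so its own rise in NIP, given above, is part of the NIP values at 36 h. The sums therefore do not describe mesenchymal cells apart from Thbs1. Of the 16 tested, 9 had a line difference below 0 and 1 passed, Thbs1 itself. Their median was -0.57 but turned to between 0.15 and 0.30 without any one of 4 libraries (replicate 1 of NIL or of NIP at 0 h, replicate 2 of NIL or of NIP at 36 h). The part of such cells in the results for Thbs1, Adamts2, A2m and Tgfb2 was not tested.

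Other genes above 0 act in metabolism, calcium transport, the membrane or the cytoskeleton. Ppargc1a encodes PGC-1alpha, a coactivator that raises mitochondrial biogenesis. Ppargc1a was at 33.4 and 20.8 CPM in NIL at 0 h and at 31.6 and 30.4 at 36 h, and at 6.29 and 5.87 in NIP at 0 h and at 33.5 and 25.2 at 36 h. NIP thus started below all NIL libraries and overlapped them at 36 h, with a line difference of 2.05 ± 0.32 (adjusted p = 0.0156). Of 30 nuclear-encoded respiratory chain genes, 10 had a line difference above 0 and 0 passed. Their median was -0.13, and it ran from -0.27 (without replicate 1 of NIP at 0 h) to -0.00083 (without replicate 1 of NIL at 36 h). Atp2b4, a calcium pump of the plasma membrane, was higher in NIP throughout and rose there from 11.4 and 14.3 to 47.0 and 65.9 CPM, while NIL stood at 3.79 and 4.49 and then 5.14 and 4.09. Its gap between the lines thereby widened from 1.63 to 3.55 log2 units, a line difference of 1.92 ± 0.32 (adjusted p = 0.0164). Kcnj2, an inward rectifier potassium channel, rose in NIP from 0.597 and 0.451 to 3.46 and 3.12 CPM toward the level of NIL, which was 8.16 and 5.84 and then 7.24 and 5.16 (line difference 2.81 ± 0.61, adjusted p = 0.0486). Tmod1, which caps actin filaments, and Map7, which binds microtubules, had line differences of 2.19 ± 0.41 and 2.01 ± 0.41 (adjusted p = 0.0294 and 0.0431), each with both NIP libraries at 36 h above the other 6.

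Members of the adhesion, axon guidance and receptor lists were also above 0. Cdh11, a cadherin, was lower at 36 h than at 0 h in both NIL replicates and rose in NIP by 1.03 ± 0.19 (adjusted p = 0.00403). In NIL the level of Cdh11 was 164 and 119.8 CPM at 0 h and 121 and 79.6 at 36 h, and in NIP 17.5 and 10.1 at 0 h and 28.1 and 26.4 at 36 h. Replicate 2 was lower than replicate 1 in all 4 groups, NIL stayed above NIP throughout, and the line difference was 1.54 ± 0.26 (adjusted p = 0.0171). Lrrtm2, a postsynaptic protein that binds neurexins, is a second adhesion gene with a line difference above 0 (1.70 ± 0.35, adjusted p = 0.0431). Sema6a, a transmembrane semaphorin of axon guidance, stood at 445 and 340.4 CPM in NIL at 0 h and 273 and 233 at 36 h, and at 154 and 173 and then 284 and 240.1 in NIP. The lines did not overlap at 0 h and did at 36 h, with a line difference of 1.29 ± 0.27 (adjusted p = 0.0431). Gabbr2, a GABA-B receptor subunit, rose in NIP by 1.55 ± 0.16 and had a line difference of 0.98 ± 0.21 (adjusted p = 0.0489). Counts by list were small: 2 of 29 adhesion genes passed above 0 and 1 below, and 1 of 34 axon guidance genes and 1 of 31 glutamate, GABA and glycine receptor genes passed above 0 (0.318% of all genes passed above 0 and 0.277% below). Of 27 synaptic vesicle and release genes 0 passed. The median line difference was 0.40 in the adhesion list, against -0.03 over all genes, and 0.23 without replicate 2 of NIP at 36 h or 0.25 without replicate 1 of NIP at 0 h. The medians of the guidance and receptor lists, both 0.09, lay on either side of 0 when 1 library was left out (-0.0095 to 0.27 and -0.12 to 0.28), the receptor list below it without replicate 1 of NIP at 0 h or replicate 2 of NIL at 36 h and the guidance list below it without the latter.

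**Figure D2:**
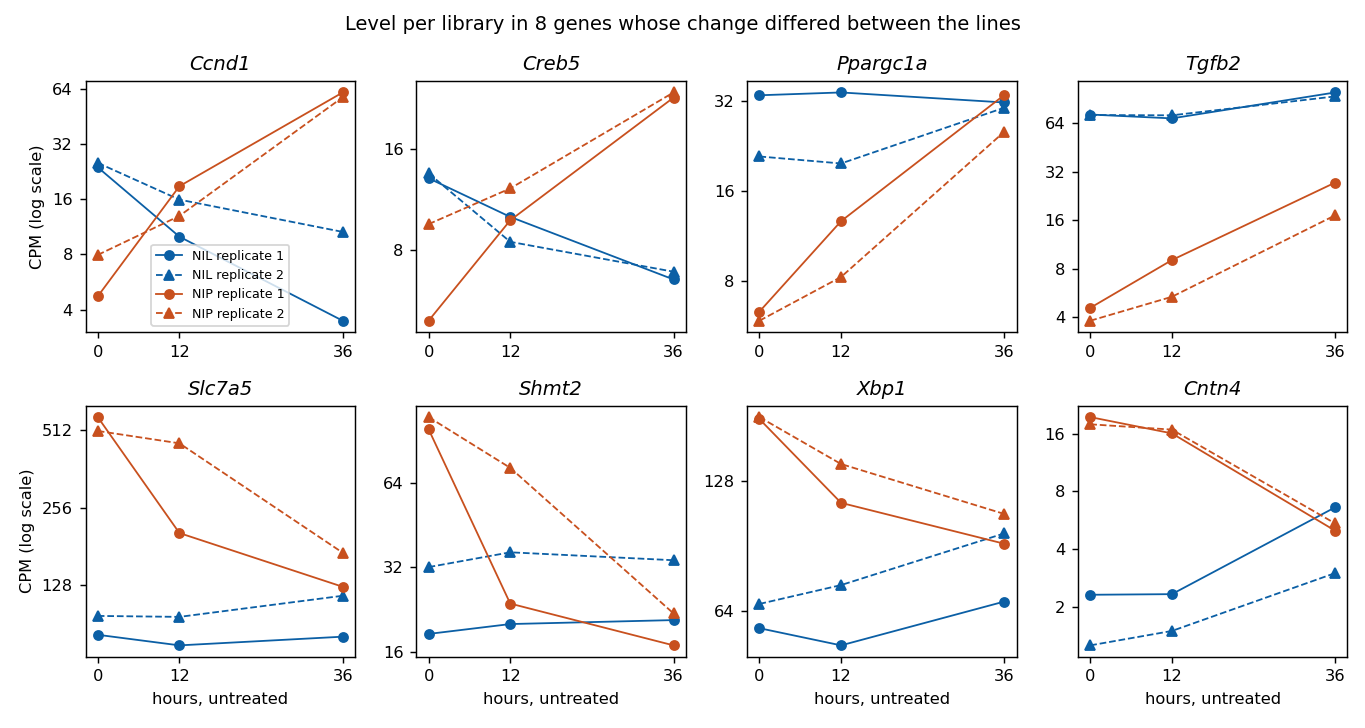
Level of 8 genes in each untreated library (CPM, log axis) at 0, 12 and 36 h, with NIL in blue, NIP in orange, circles for replicate 1 and triangles for replicate 2, joined by replicate number. In the top row NIP rises at all 4 genes, while in the bottom row NIP falls toward or below the NIL level. For Slc7a5 and Shmt2 the 12 h value of NIP differs between the replicates, and both replicates are low at 36 h.

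Genes of amino acid synthesis, transport and tRNA charging fell in NIP. The level fell there for 28 of 31 by the test (4.4% of all genes fell in NIP), and in NIL 0 of 31 passed in either direction. The line difference was below 0 for 30 of the 31, with a median of -1.17 against -0.03 over all genes, of which 52.7% were below 0. It passed for 6, all below 0: Slc7a5, Slc3a2, Slc1a4, Shmt2, Wars and Yars (0.277% of all genes passed below 0). The exception in sign was Slc38a2, an amino acid transporter, with a line difference of 0.45 ± 0.26 (adjusted p = 0.476). The list was written with earlier results of these data known, so its direction is a description.

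Some promoters of this list are shown because they hold the letters that ATF4 binds with a C/EBP partner, the C/EBP-ATF response element. The letters searched were TGATGNAA on both strands, in the 300 bases from 250 before to 50 after a gene's start. They occurred in 9 of the 23 promoters of the list that RefSeq's table holds (39.1%), in 1096 of 27025 promoters in all (4.06%) and in 261 of 11576 promoters of tested genes (2.25%). Among genes with a line difference that passed, they occurred in 2 of 30 promoters above 0 (6.67%) and in 2 of 33 below 0 (6.06%), the latter being Slc1a4 and Yars. The 9 also include Aars and Slc7a11, with 2 matches each, which are not shown. Shmt2 and Slc3a2, which passed, had no match, and neither had Phgdh, Psat1 or Mthfd2. For Slc7a5 and Wars, which also passed, no promoter was available. The list was made of the kinds of gene that ATF4 raises, so its share beside that of all promoters is a description. Those below are from RefSeq on GRCm38.p6, read 5′ to 3′ on the gene's strand, with the match in capitals (a match may be the same element read from the other strand). Each begins 30 bases before the match and ends at most 30 after it, none running past the gene's start further than the match itself.
Slc1a4, a neutral amino acid transporter that passed, at chr11:20332710-20332747 on the minus strand: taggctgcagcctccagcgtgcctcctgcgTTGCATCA
Yars, the tyrosyl-tRNA synthetase that passed, at chr4:129189876-129189913 on the plus strand: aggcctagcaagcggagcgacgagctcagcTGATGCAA
Asns, asparagine synthetase, at chr6:7693210-7693262 on the minus strand: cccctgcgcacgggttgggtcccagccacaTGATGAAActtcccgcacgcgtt
Gars, the glycyl-tRNA synthetase, at chr6:55037941-55038000 on the plus strand: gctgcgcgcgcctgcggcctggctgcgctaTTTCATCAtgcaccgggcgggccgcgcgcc
Tars, the threonyl-tRNA synthetase, at chr15:11399659-11399703 on the minus strand: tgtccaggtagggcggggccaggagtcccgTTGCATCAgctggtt
Iars, the isoleucyl-tRNA synthetase, at chr13:49682107-49682144 on the plus strand: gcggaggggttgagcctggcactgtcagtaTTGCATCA
Pycr1, the last enzyme of proline synthesis, at chr11:120643814-120643881 on the minus strand: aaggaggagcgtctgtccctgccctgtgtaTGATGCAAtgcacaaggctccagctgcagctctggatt
A match describes the letters in the window and does not show that a protein bound there. Of these 7 genes, the 5 that did not pass had line differences of -1.31 ± 0.33 (Asns), -1.02 ± 0.27 (Gars), -0.71 ± 0.29 (Tars), -0.82 ± 0.24 (Iars) and -2.0 ± 0.53 (Pycr1). Each of the 7 fell in NIP by the test. Creb5, on the upper side, also holds the element, at chr6:53287245-53287302 on the plus strand: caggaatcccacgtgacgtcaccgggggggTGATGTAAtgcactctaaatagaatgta

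Slc7a5 and Slc3a2 encode the light and heavy chains of LAT1, the transporter that brings leucine and other large neutral amino acids into the cell. The Slc7a5 level went from 82.2 and 97.3 CPM in NIL at 0 h to 80.8 and 117 at 36 h, and from 577 and 509 in NIP to 126 and 171. The lines did not overlap at either time, but the distance shrank from 2.61 to 0.60 log2 units. The line difference was -2.01 ± 0.37 (adjusted p = 0.0294), from a change of 0.12 ± 0.26 in NIL and -1.89 ± 0.27 in NIP (adjusted p = 0.904 and 0.00074). Slc3a2 was at 85.5 and 117 CPM in NIL at 0 h and at 83.5 and 110.4 at 36 h, and at 307 and 321 in NIP at 0 h and at 107 and 117 at 36 h. Its line difference was -1.43 ± 0.30 (adjusted p = 0.0431), and at 36 h the lines overlapped. Slc1a4 went from 45.6 and 46.7 to 72.8 and 66.1 CPM in NIL, and in NIP it fell from 163 and 151 to 101 and 111, with a line difference of -1.16 ± 0.24 (adjusted p = 0.0431). The change in NIL alone did not pass (adjusted p = 0.112).

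Shmt2 is the mitochondrial serine hydroxymethyltransferase, which passes a carbon unit from serine to folate. In NIL the level of Shmt2 was 18.6 and 32.1 CPM at 0 h and 20.8 and 34.0 at 36 h, and in NIP 99.1 and 109 at 0 h and 16.9 and 22.0 at 36 h. NIP was higher than both NIL libraries at 0 h and was within or below their range at 36 h, with a line difference of -2.56 ± 0.51 (adjusted p = 0.0474). The other genes of serine and folate metabolism named here had values of similar or larger size that did not pass. Phgdh, the first enzyme of serine synthesis, went from 116 and 148 CPM to 3.93 and 14.9 in NIP and from 9.43 and 31.3 to 8.58 and 25.7 in NIL (-3.67 ± 0.96, adjusted p = 0.141). Psat1, the next enzyme, and Mthfd2, of mitochondrial folate metabolism, had line differences of -2.45 ± 0.57 and -2.70 ± 0.58 (adjusted p = 0.0933 and 0.0689). All 3 fell in NIP by the test (adjusted p = 0.0095, 0.00229 and 0.00479). At 12 h in NIP, replicate 1 was lower than replicate 2 for Shmt2 (23.8 and 72.3 CPM), Psat1 (161 and 291), Phgdh (22.8 and 104), Mthfd2 (28.4 and 89.5) and Slc7a5 (204 and 456).

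The tRNA synthetases Wars and Yars, for tryptophan and tyrosine, passed with line differences of -1.35 ± 0.28 and -1.09 ± 0.23 (adjusted p = 0.0431 and 0.0479). The Wars level went from 115 and 185 CPM in NIL at 0 h to 134 and 252 at 36 h, and from 192 and 210.2 in NIP to 84.0 and 119.6. Both NIL replicates of Wars were higher at 36 h than at 0 h, and both NIP replicates lower. Yars was at 105 and 106 CPM in NIL at 0 h and at 108 and 95.6 at 36 h, and at 255 and 242 in NIP at 0 h and at 105 and 120.3 at 36 h. NIP was above all NIL libraries at 0 h, and at 36 h its lower library was within the NIL range. Over the list the gap between the lines went from a median of 1.43 at 0 h to 0.09 at 36 h. The median line difference was -1.37 within replicate set 1 and -0.95 within set 2. The number that passed was 13 with the 8 libraries alone, 20 with DESeq2, 0 without the block, 4 without replicate 2 of NIP at 0 h and 0 without any other 1 of the 8 libraries, while 29 or 30 of 31 were below 0 in each.

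**Figure D3:**
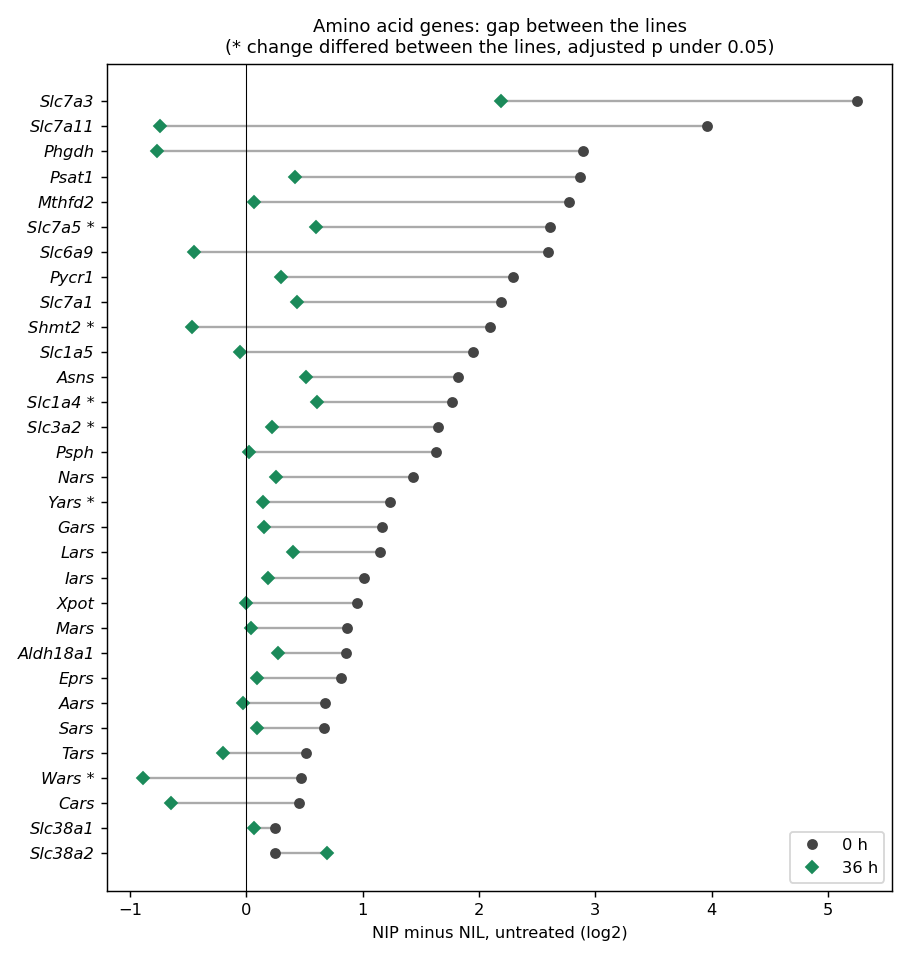
Log2 level of NIP minus NIL without drug for each of the 31 amino acid genes at 0 h (black circles) and at 36 h (green diamonds), joined by a line, with an asterisk where the line difference passed. At 0 h all 31 were higher in NIP, and at 36 h most lie near 0, the median having gone from 1.43 to 0.09.

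Related stress genes showed fewer calls than the amino acid list. Of 18 tested ATF4 and CHOP targets, 14 had a line difference below 0 (median -1.13, with 52.7% of all genes below 0). In that list 1 passed (0.277% of all genes passed below 0), Atf5, a transcription factor that acts beside ATF4. The number that passed was 4 with the 8 libraries alone, 5 with the DESeq2 test, and 0 with DESeq2 size factors or without the block. In NIL the level of Atf5 was 22.8 and 32.0 CPM at 0 h and 20.2 and 33.9 at 36 h, and in NIP 114 and 132 at 0 h and 42.8 and 51.4 at 36 h. NIP was above NIL at both times and the line difference was -1.35 ± 0.29 (adjusted p = 0.0489). Cebpb, a partner of ATF4, and Trib3, a pseudokinase it induces, had values of -2.30 ± 0.51 and -2.78 ± 0.86 (adjusted p = 0.0557 and 0.19). Atf3 was on the other side at 1.06 ± 0.36 (adjusted p = 0.205).

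Of 28 chaperone and folding genes of the endoplasmic reticulum, 26 had a line difference below 0 (median -0.71, with 52.7% of all genes below 0). In that list 1 passed (0.277% of all genes passed below 0), Xbp1, whose spliced form raises such genes. The number that passed was 1 with the 8 libraries alone, 4 with the DESeq2 test and 0 without the block. The Xbp1 level went from 58.5 and 66.6 CPM in NIL at 0 h to 67.4 and 97.0 at 36 h, and from 178 and 180.3 in NIP to 91.8 and 108. The change in NIP was -0.86 ± 0.14 (adjusted p = 0.00193), both NIL replicates were higher at 36 h, and the line difference was -1.24 ± 0.20 (adjusted p = 0.016). Hspa5, the chaperone BiP, stood at 693 and 425 CPM in NIP at 0 h and 305 and 332 at 36 h, and at 350.1 and 437 and then 374 and 487 in NIL, a value of -0.96 ± 0.33 that did not pass (adjusted p = 0.211). Herpud1, of ER-associated degradation, was at -1.16 ± 0.32 (adjusted p = 0.117). The sensor gene Eif2ak3, which encodes the eIF2alpha kinase PERK, went the other way. Eif2ak3 was at 101 and 67.9 CPM in NIL at 0 h and at 55.6 and 50.9 at 36 h, and at 64.9 and 57.5 in NIP at 0 h and at 90.0 and 89.1 at 36 h. NIL was lower at 36 h and NIP higher in both replicates, with a line difference of 1.21 ± 0.22 (adjusted p = 0.0294). Crebrf, which regulates CREB3, an ER-bound transcription factor, was also above 0 at 1.12 ± 0.25 (adjusted p = 0.0497). The median of the chaperone list was -0.38 without replicate 1 of NIP at 0 h, and 6 of its genes passed without replicate 2.

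Genes of the neuronal surface and of calcium binding were also found below 0. Cntn4 encodes contactin 4, an adhesion molecule of axons. In NIL the level of Cntn4 was 2.33 and 1.27 CPM at 0 h and 6.62 and 3.02 at 36 h, and in NIP 19.5 and 17.9 at 0 h and 5.0 and 5.46 at 36 h. NIP began far above NIL and the lines overlapped at 36 h, with a line difference of -3.18 ± 0.51 (adjusted p = 0.0156) over a gene at chr6:105677660-106699310. Kcnc4, a Kv3-type potassium channel, is among the 6 whose change passed in NIL but not in NIP. The Kcnc4 level went from 2.65 and 3.81 CPM in NIL at 0 h to 8.03 and 8.07 at 36 h, and from 54.9 and 32.9 in NIP to 27.5 and 24.7. It rose in NIL by 1.37 ± 0.28 (adjusted p = 0.0282), and the line difference was -2.13 ± 0.37 (adjusted p = 0.02). Slc6a17, a transporter of synaptic vesicles, rose in NIL from 3.38 and 2.79 to 12.6 and 9.24 CPM and was already at 15.1 and 16.3 in NIP, where it stood at 21.0 and 22.6 at 36 h (line difference -1.33 ± 0.27, adjusted p = 0.0431). Chrm3, a muscarinic receptor, and Adra2a, an adrenergic receptor, rose in NIL by 1.05 ± 0.20 and 1.20 ± 0.23 (adjusted p = 0.0184 for both). Their line differences were -1.42 ± 0.30 and -1.50 ± 0.33 (adjusted p = 0.0444 and 0.0494).

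The calcium-binding proteins Cabp1 and Hpca (hippocalcin) fell in NIP from a higher start. Cabp1 went from 19.6 and 34.5 to 5.84 and 8.76 CPM in NIP and from 2.77 and 2.88 to 4.34 and 5.64 in NIL, so that the lower NIP library at 36 h was near the higher NIL library. Hpca went from 65.4 and 66.4 to 26.1 and 28.1 CPM in NIP and from 12.6 and 10.1 to 16.0 and 11.4 in NIL, without overlap of the lines. Their line differences were -2.63 ± 0.51 and -1.54 ± 0.31 (adjusted p = 0.0411 for both). Cnih3, an auxiliary subunit of AMPA receptors, was at -3.55 ± 0.71 (adjusted p = 0.0431) and Nxph4, a secreted neurexophilin, at -2.47 ± 0.46 (adjusted p = 0.0294). Nxph4 lies next to Shmt2, at chr10:127525473-127534559 and chr10:127517123-127522444, both on the minus strand.

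Plk3, a stress-activated polo-like kinase, had the smallest adjusted p below 0. Plk3 was at 24.9 and 25.4 CPM in NIL at 0 h and at 31.7 and 29.6 at 36 h, and at 108 and 84.0 in NIP at 0 h and at 31.9 and 37.2 at 36 h. The lines did not overlap at 0 h or at 36 h, where they were close, and the line difference was -1.73 ± 0.24 (adjusted p = 0.0105, and 0.00896 to 0.0888 without 1 library). Ucp2, an inner mitochondrial membrane carrier, fell in NIP from 40.7 and 62.7 to 6.91 and 16.7 CPM and stood at 21.1 and 37.0 and then 15.6 and 41.5 in NIL, each time with replicate 1 below replicate 2 (line difference -2.08 ± 0.43, adjusted p = 0.0481). Card10, a scaffold of NF-kappaB signalling, had the lowest line difference of those that passed, -3.72 ± 0.75 (adjusted p = 0.0431). Its level was at most 10.7 CPM in any of the 8 libraries, and 0.238 and 1.65 in NIP at 36 h. In Lmna, which encodes nuclear lamins A and C, both NIL replicates were higher at 36 h than at 0 h and both NIP replicates lower (-1.10 ± 0.20, adjusted p = 0.0278).

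Endoderm, proliferation and pluripotency genes had medians below 0 and 0 calls in the fit of 20 libraries. Over all genes 52.7% were below 0 and 0.277% passed below 0. All 20 endoderm and endothelium genes had a line difference below 0 (median -1.11) and 0 passed. With the 8 libraries alone 4 of them passed, all below 0. With the 12 untreated libraries 6 endoderm, 1 proliferation and 2 pluripotency genes passed, all below 0. Examples are Sox17 at -1.73 ± 0.65 (adjusted p = 0.275), Krt8 at -1.43 ± 0.51 (adjusted p = 0.245) and Col4a2 at -1.11 ± 0.59 (adjusted p = 0.442). Their summed level was higher at 36 h than at 0 h in both NIL replicates, and in NIP it was lower at 36 h in replicate 1 and higher in replicate 2, as given above. Of 26 proliferation genes 25 were below 0 (median -0.79), with sums of 493 and 1392 CPM in NIL at 0 h and 462 and 1243 at 36 h, and of 228 and 395 in NIP at 0 h and 129 and 246 at 36 h. Replication-dependent histone genes, which dividing cells also express, were below 0 for 3 of 19 (median 0.39, 0 passed), but their median was -0.39 without replicate 2 of NIL at 0 h and -0.48 without replicate 1 of NIP at 36 h. Cdk1 and Bub1b, of mitotic entry and the spindle checkpoint, were at -1.23 ± 0.47 and -1.19 ± 0.39 (adjusted p = 0.273 and 0.19). Of 19 pluripotency genes 16 were below 0 (median -0.76), but the median was 0.13 and 7 were below 0 without replicate 2 of NIL at 36 h, and the median was -0.11 without replicate 1 of NIP at 0 h. That of the proliferation genes was -0.48 without this last library. The part of cells of these types, if present, in the genes with a line difference below 0 was not tested.

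For cholesterol synthesis, 24 of 24 genes were below 0, against 52.7% of all genes (median -0.62), 0 passed, and 16 of the 24 fell in NIP by the test, against 4.4% of all genes. The number that passed was 2 with the 8 libraries alone, 6 with the 12 untreated libraries and 1 with DESeq2. The median was -0.39 without replicate 1 of NIP at 36 h. Insig1, which holds the sterol sensor in the ER, stood at 183 and 159 CPM in NIP at 0 h and 58.3 and 75.3 at 36 h, and at 129.5 and 133 and then 100.1 and 118 in NIL (-1.08 ± 0.34, adjusted p = 0.172). Stard4, a sterol carrier, was at -1.41 ± 0.41 and Fdps, an enzyme of the pathway, at -1.06 ± 0.37 (adjusted p = 0.146 and 0.208). Of 25 immediate early genes 20 were below 0 (median -0.86), 0 passed and 9 fell in NIP, against the same 52.7% below 0 and 4.4% falling over all genes. Ier2 is among those that fell (-0.90 ± 0.23 for the line difference, adjusted p = 0.106). The 5 above 0 include Dusp1 at 0.77 ± 0.22 and Atf3 at 1.06 ± 0.36 (adjusted p = 0.137 and 0.205). Below 0 were 17 of 24 immediate early genes with the 8 libraries alone, and 18 of 25 with Rn45s removed from library sizes. Cytosolic ribosomal protein genes were below 0 for 29 of 30, but by little (median -0.17, with -0.44 in replicate set 1 and 0.05 in set 2), and for 17 of 30 without replicate 1 of NIL at 0 h (median -0.066), 19 without replicate 1 of NIL at 36 h (-0.031) and 20 without replicate 1 of NIP at 0 h (-0.054).

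**Figure D4:**
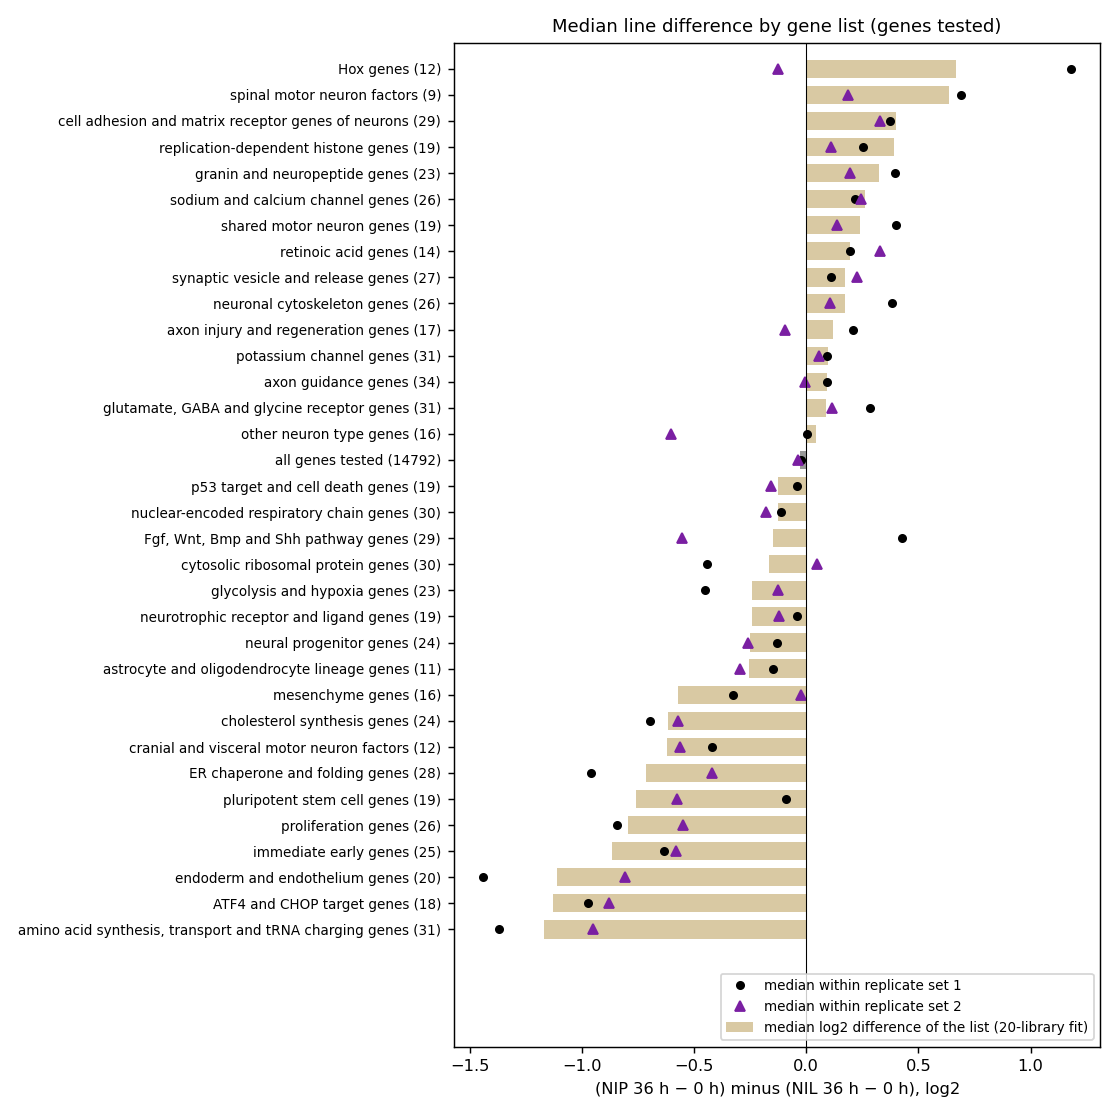
Median line difference (bars, log2) of each gene list with at least 5 tested genes, with the number tested in parentheses, and the same median within replicate set 1 (circles) and set 2 (triangles). The amino acid list has the lowest bar at -1.17, all genes together stand at -0.03, and the sets lie apart by over 1 log2 unit for the Hox genes.

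Motor neuron identity genes had 0 calls, where 0.595% of all genes passed. None of 9 spinal factors, 12 cranial and visceral factors and 19 shared motor neuron genes passed, with medians of 0.64, -0.62 and 0.24. DESeq2 called 1 spinal factor, above 0, and 0 genes of the other lists. The cranial median turned to 0.48 without replicate 2 of NIL at 36 h and was -1.51 without replicate 1, and without replicate 1 of NIP at 0 h the spinal median was 0.11 and the shared one 0.097. These values do not show that the lines moved alike. Isl2, a spinal LIM homeodomain gene, stood at 331 and 230.1 CPM in NIL at 0 h and 164 and 142 at 36 h, and at 6.46 and 13.3 and then 16.1 and 20.4 in NIP (1.82 ± 0.46, adjusted p = 0.111). NIL was lower and NIP higher at 36 h than at 0 h in both replicates, and NIL stayed above NIP. The programming factor Isl1 was at 0.11 ± 0.24 (adjusted p = 0.878), and Phox2a at -0.92 ± 1.05 (adjusted p = 0.765). Lhx4, a paralog of Lhx3, was at -0.57 ± 0.34, with 0.19 within replicate set 1 and -1.32 within set 2. Prph, which encodes the intermediate filament peripherin, was at 70.0 and 61.7 CPM in NIL at 0 h and 80.8 and 77.4 at 36 h, and at 524 and 715 and then 795 and 664 in NIP (-0.02 ± 0.25, adjusted p = 0.987).

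Of 12 tested Hox genes 9 were above 0, with a median of 1.18 within replicate set 1 and -0.13 within set 2. Hoxb8 came closest to passing at 4.36 ± 0.98 (adjusted p = 0.056), with 1.19 and 0.812 CPM in NIP at 0 h and 4.89 and 3.3 at 36 h against at most 0.339 in NIL. Hoxb4 was at 1.35 ± 0.39 (adjusted p = 0.134). Ncam2, an axonal adhesion molecule, was at 1.46 ± 0.36 (adjusted p = 0.0949), rising in NIP from 103 and 105 to 235 and 206 CPM.

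Across the 88 genes, the direction was tied to where NIP began. Of the 47 above 0, NIP was below NIL at 0 h for 43 and above it at 36 h for 30. Of the 41 below 0, NIP was above NIL at 0 h for 37 and below it at 36 h for 24. Among all 14792 genes, NIP was below NIL for 7280 and above it for 7512 at 0 h. At 36 h it was below NIL for 7410 and above it for 7382. The gap between the lines became smaller for 51 of the 88 and larger for 37, changed sign for 46, and had a median size of 1.21 log2 units at 0 h and 0.96 at 36 h. Over all 14792 genes it became smaller for 6981 and larger for 7811, and changed sign for 3940. Its median size over all genes was 0.37 at 0 h and 0.39 at 36 h. Both the gap at 0 h and the line difference use the same 0 h libraries, so this tie is a description. The 12 h libraries, which the contrast does not use, had an NIP mean between those at 0 h and 36 h for 82 of the 88, against 7864 of 14792 genes. For 12 h the share is raised by the choice of genes that moved in NIP. The line difference had the same sign within replicate set 1 and within set 2 for all 88, which the test favours. It was larger in set 1 for 62 of the 88, against 8315 of 14792 genes.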

How the data were processed

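Total RNA was depleted of ribosomal RNA and made into libraries with the KAPA RNA HyperPrep kit, per the labels' protocols. Each deposited file lists whole-number counts of reads for 24421 gene symbols. The submitters' processing notes name Picard, HTSeq 0.6.1p1, TopHat2 2.1.1, Bowtie2 2.3.2 and the builds GRCm38 and mm10, while the strand setting and annotation release are not given in the sources used here. Reads at overlapping genes may therefore be mixed. Summary lines stayed out of library sizes: reads with more than 1 place were 24.2% to 48.9% of reads in the 8 libraries, reads outside genes 7.77% to 18.7% and ambiguous reads 0.158% to 0.417%.

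Counts were scaled with TMM factors and filtered with filterByExpr by group, which left 14792 genes. One edgeR 4.0.16 quasi-likelihood model (robust, R 4.3.3) of all 20 libraries held a mean per group and the replicate number as a block, with 9 residual degrees of freedom and a biological coefficient of variation of 15.7%. Contrasts gave the line difference and the change in each line, with Benjamini-Hochberg adjustment over all genes tested and a threshold of 0.05. Adjusted p-values in the text are from this model unless a sentence names another fit. Values after ± are standard errors in log2 units, with 2 libraries in each group. Values "within a replicate set" are the same contrast of log2 CPM in the 4 libraries of 1 number. CPM uses the scaled library sizes and is not corrected for gene length, so levels are not compared between genes. The code was tested on simulated data. In each group the counts of the replicates were further apart than sampling noise allows.

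The replicate number comes from the sample titles. Deviations of same-numbered libraries correlated across genes in all 45 pairs of groups (r from 0.243 to 0.762). Among the 4 groups used, the 6 pairs ran from 0.346 to 0.762. The correlation was 0.762 between NIL at 0 h and at 36 h, but 0.372 between NIP at 0 h and at 36 h. Same-numbered libraries thus shared deviations, less so within NIP. The block is 1 effect common to all groups, and whether it fits NIP as well as NIL was not tested.

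The comparison, the gene lists and the genes were chosen with earlier results of these data known. Genes named are the 14 largest line differences of each sign among those passing, given a highest group mean of 5 CPM or more and the same sign in both replicate sets, then from each list up to 4 genes of lowest p, and a set of motor neuron identity genes. Named outside that rule after their values were seen were Glcci1, Plk3, Eif2ak3, Crebrf, Yars, Hpca, Chrm3, Adra2a, Slc6a17, Lmna, Slc38a2, Phgdh, Psat1, Mthfd2, Asns, Gars, Tars, Iars, Pycr1, Hspa5, Fdps and Col4a2. Gene positions are from GENCODE vM21 and promoters from RefSeq's table (GRCm38.p6, first entry per gene), with symbols that both annotations place over 100000 bases apart left out. Alternatives were other scalings and filters, DESeq2 1.42.0, fits without the block, of 8 or of 12 libraries, with Rn45s removed from library sizes, and without each of the 8 libraries.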

Additional observations from a re-analysis of the deposited data

Results flagged for a closer look

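The change from 0 h to 36 h differed between the lines, by the test of the difference itself, for 88 genes. Of these, Creb5 (line difference 2.70) and Glcci1 (1.70) also passed the test in each line, with a fall in NIL and a rise in NIP.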

How the results depend on the processing

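Each named or called gene was refitted under 17 alternatives. For the line difference, main count 88, the counts that moved by over 1.5 times were 0 without the replicate block, 141 with the 8 libraries alone, 221 with the 12 untreated libraries and 299 with DESeq2, and leaving out 1 library gave 1 to 160. The scalings and filters gave 79 to 99. The lowest adjusted p of any called gene without the block was 0.1. For NIL (139 genes) the counts were 4 without the block, 274 with 12 libraries and 329 with DESeq2, and 8 to 134 without 1 library. For NIP (1345 genes) it was 191 without the block, and 250 to 1221 without 1 library. Signs turned for genes that had not passed: without 1 library Phox2a ran from -1.94 to 1.26, Rn45s from -0.87 to 2.27 and Prph from -0.22 to 0.20, and Prph was at 0.0016 with Rn45s removed. The cause was not tested. With 2 libraries in each group, the median standard error of a line difference was 0.30 log2 units, and no difference under 0.94 log2 units passed.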
